A study of Mus musculus with 6 samples.

Results

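The mGluR6-TRPM1 complex is the receptor, G protein and channel assembly with which ON bipolar cells of the retina respond to glutamate from photoreceptors. It was examined here through 10 genes taken by symbol from the deposited P7 expression table, *Grm6*, *Trpm1*, *Nyx*, *Gpr179*, *Lrit3*, *Gnao1*, *Gng13*, *Rgs7*, *Rgs11* and *Gnb5*. They are 10 of the 21744 genes listed, and all 10 were among the 15200 genes tested, whose mean over the libraries was 0.1 or more in FPKM, fragments scaled by transcript length and library size. Retinal RNA of 3 control mice and of 3 *Lhx4* null mice, all aged 7 days (P7), was sequenced, and both groups had a mixed C57BL/6J; 129S6 background. The retinas of 1 mouse made 1 library, after the pigment epithelium had been dissected away. In the study, *Lhx4* null mice were *Lhx4* tdT/loxP with *Six3-Cre*, thus carrying a tdTomato knock-in allele and a floxed allele that Cre inactivates in the retina. Controls in its recordings were wild type or *Lhx4* loxP/+. The labels say only "control", so the alleles of the 3 control mice sequenced, and whether they carried Cre, are not given in the sources used here.

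In darkness photoreceptors release glutamate onto the dendrites of ON bipolar cells, where it binds the metabotropic receptor mGluR6. The receptor activates the G protein Go, and the cation channel TRPM1 is held closed. When light lowers glutamate, RGS proteins speed the return of Go to its inactive state and the channel opens. Leucine-rich repeat proteins and the orphan receptor GPR179 hold the assembly together at the dendritic tip, and loss of several of these genes in humans or mice removes the ON response and causes congenital stationary night blindness.

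*Lhx4* itself, the targeted gene, had 20.9, 23.8 and 19.1 FPKM for control replicates 1, 2 and 3 and 31.2, 30.3 and 29.0 FPKM for *Lhx4* null replicates 1, 2 and 3. It was therefore higher, not lower, in every library labelled *Lhx4* null, so the names used below are control libraries for the first group and libraries labelled *Lhx4* null for the second. The table gives 1 value for the whole gene, so reads from an inactivated or a knock-in allele cannot be told apart from those of the intact one. Other genes do separate the groups, with *Bhlhe23* at 6.51% of its control mean and *Grik1*, *Fezf2* and *Lhx3* at 27.9%, 32.4% and 37.2%. By in situ hybridization for *Bhlhe23* and *Grik1*, and by immunolabelling for FEZF2 and LHX3, the study also reports reductions in *Lhx4* null retinas. Its *Bhlhe23* staining was of retinas younger than P7, and its FEZF2 and LHX3 counts are of labelled cells rather than RNA. For these genes the labels and the study's staining thus run the same way. Relative depth, recovered from the whole-fragment steps of 1487 genes under 0.1 FPKM, was 95.7%, 76.9% and 100% in the control libraries and 46.7%, 57.5% and 65.9% in the libraries labelled *Lhx4* null. Each control library was thus deeper than each of the others, and depth and genotype cannot be told apart. The tissue label fits its markers: *Sag*, a rod gene, was between 623 and 1008 FPKM, and 0 of the 8 rod genes was at 0 in any library.

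Of the 10 cascade genes, *Grm6* fell in the libraries labelled *Lhx4* null. *Trpm1*, *Nyx*, *Gng13* and *Rgs11* were also lower in all 3 of those libraries than in any control library but missed the adjusted threshold, and *Gpr179*, *Lrit3*, *Gnao1*, *Rgs7* and *Gnb5* overlapped between the groups. Limma, adjusted over every gene tested, put 1 of 10 under 0.05 in the lower direction, against 0.138% of all genes tested. That count went to 0 when *Lhx4* null replicate 2 or replicate 3 was left out, and under other alternatives given below. An unadjusted p under 0.05 with a lower value was found for 5 of 10, against 3.55% of all genes, and 0 of 10 had one with a higher value, against 4.60%. The second group lay wholly below the first in 5 of 10, against 6.13% of all genes tested, and wholly above it in 0 of 10, against 8.10%. The median log2 fold change of the 10 genes was -0.41, and that of all genes tested was 0.01. Fold changes are differences in log2(FPKM + 0.1), labelled *Lhx4* null minus control. In RNA from whole retina, fewer ON bipolar cells and less RNA in each cell cannot be told apart.

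**Figure D1:**
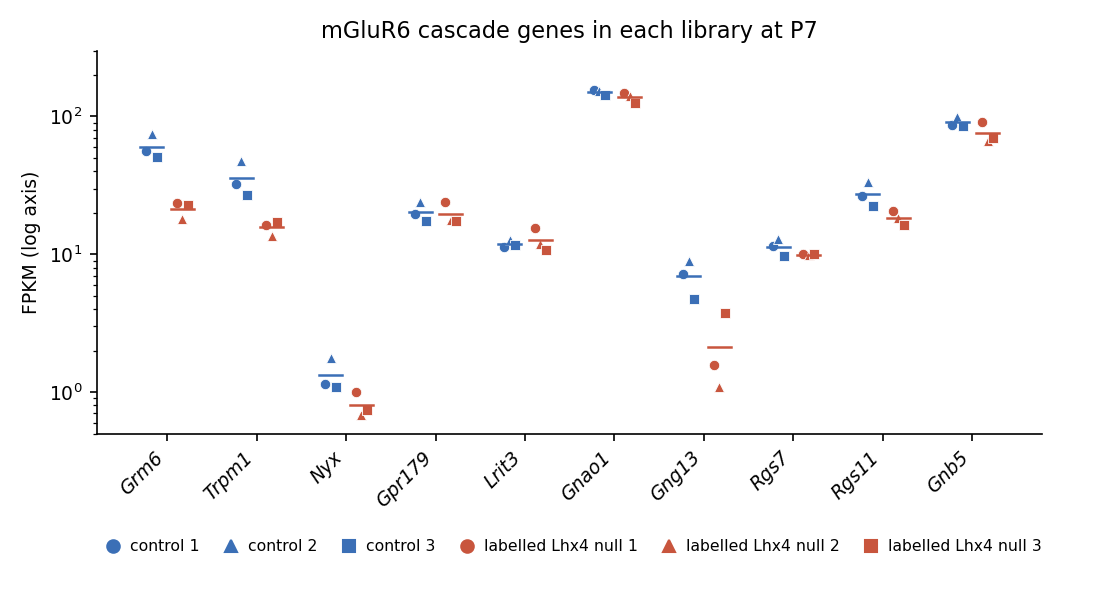
FPKM of the 10 cascade genes in each library on a log axis, with control libraries in blue, libraries labelled *Lhx4* null in red, a symbol for each replicate number and a line at each group mean. The groups are separate for *Grm6*, *Trpm1*, *Nyx*, *Gng13* and *Rgs11* and overlap for the other 5 genes.

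*Grm6* and *Trpm1* encode the 2 ends of the cascade, the receptor and the channel. The RefSeq promoter table (GRCm38.p6) matched 9 of the 10 genes, with 11 windows in all, and the 250 bases before the start are shown for these 2 genes, which were lower together, and for *Gpr179* and *Lrit3*, which overlapped. Each is on the strand of its gene, at chr11:50850435-50850684 (plus strand) for *Grm6*, chr7:64153585-64153834 (plus strand) for *Trpm1*, chr11:97352357-97352606 (minus strand) for *Gpr179* and chr3:129804137-129804386 (minus strand) for *Lrit3*. Capitals mark the motifs searched on both strands, a paired-type homeodomain core spelled TAATTA, a second homeodomain core, known from CRX and OTX2 sites, spelled TAATCC, whose reverse complement is written as GGATTA here, and the E-box of basic helix-loop-helix factors, CANNTG.
Grm6: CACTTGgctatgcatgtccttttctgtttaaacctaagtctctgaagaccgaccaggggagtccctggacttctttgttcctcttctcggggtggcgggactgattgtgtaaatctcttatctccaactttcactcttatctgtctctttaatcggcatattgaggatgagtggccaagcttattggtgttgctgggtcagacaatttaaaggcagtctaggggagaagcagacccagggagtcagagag
Trpm1: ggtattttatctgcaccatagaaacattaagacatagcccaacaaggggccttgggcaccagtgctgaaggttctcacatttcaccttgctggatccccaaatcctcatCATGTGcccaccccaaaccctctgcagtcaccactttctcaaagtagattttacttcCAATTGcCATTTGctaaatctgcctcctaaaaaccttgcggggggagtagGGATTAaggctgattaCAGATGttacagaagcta
Gpr179: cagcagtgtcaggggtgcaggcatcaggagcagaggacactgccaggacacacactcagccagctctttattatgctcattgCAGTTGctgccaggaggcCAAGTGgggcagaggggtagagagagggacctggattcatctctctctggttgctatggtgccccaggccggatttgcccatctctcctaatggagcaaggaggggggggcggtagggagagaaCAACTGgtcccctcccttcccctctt
Lrit3: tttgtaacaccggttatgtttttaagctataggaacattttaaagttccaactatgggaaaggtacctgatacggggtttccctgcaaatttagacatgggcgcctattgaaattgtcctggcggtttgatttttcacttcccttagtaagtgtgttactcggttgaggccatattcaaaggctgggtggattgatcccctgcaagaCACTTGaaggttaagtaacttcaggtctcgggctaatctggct
The *Grm6* window holds CACTTG at its first base and neither homeodomain core, and the *Trpm1* window holds GGATTA 34 bases before the start, with E-boxes 141, 84, 77 and 18 bases before it. *Gpr179* has 3 E-boxes and *Lrit3* has 1, with no homeodomain core. The only other member window with TAATCC or its reverse is that of *Gnb5*, with GGATTA 6 bases before the start, and 0 of the 11 windows holds TAATTA. Among 32851 promoter windows of this length, 4.84% hold the first core, 6.25% hold the second on either strand and 66.2% hold the E-box, and none of the matches marked overlaps another. *Trpm1* has a second listed start 31624 bases downstream, whose window has 3 E-boxes and neither core.

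*Grm6* (ENSMUSG00000000617), which encodes the receptor, lies on chromosome 11 of GRCm38 from 50850685 to 50866208. It had 56.0, 74.3 and 51.2 FPKM for control replicates 1, 2 and 3 and 23.5, 17.9 and 22.7 FPKM for *Lhx4* null replicates 1, 2 and 3. The lowest control library was above 2 times the highest of the others, and the null mean was 35.3% of the control mean. The log2 fold change was -1.49 (95% interval -1.84 to -1.14, adjusted p = 0.0091 from limma), which ranked 14 by p among the 15200 genes tested. Leaving out *Lhx4* null replicate 2 gave an adjusted p of 0.056 and leaving out *Lhx4* null replicate 3 gave 0.051, in a range of 0.0075 to 0.25 over 15 alternatives. Over the same alternatives the log2 fold change ran from -1.60 to -1.33. *Trpm1* (ENSMUSG00000030523), which encodes the channel, lies on chromosome 7 from 64153835 to 64269775. Its values were 32.2, 47.9 and 27.0 FPKM in control libraries, compared with 16.4, 13.6 and 17.1 in those labelled *Lhx4* null. Control replicate 2 stood highest for both genes, and the groups did not overlap in either. For *Trpm1* the log2 fold change was -1.15 (95% interval -1.59 to -0.70, adjusted p = 0.088 from limma). That p stayed at 0.081 or more in each of 15 alternatives. *Trpm1* is spread over 115941 bases and carries *Mir211* in an intron. Of its exon bases in GENCODE vM21, 0.081% overlap an opposite-strand gene, against 11.1% for *Grm6*, whose opposite-strand neighbour is *Gm12660*. Whether reads were assigned by strand is not stated in the sources used here, so reads of such pairs cannot be told apart.

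**Figure D2:**
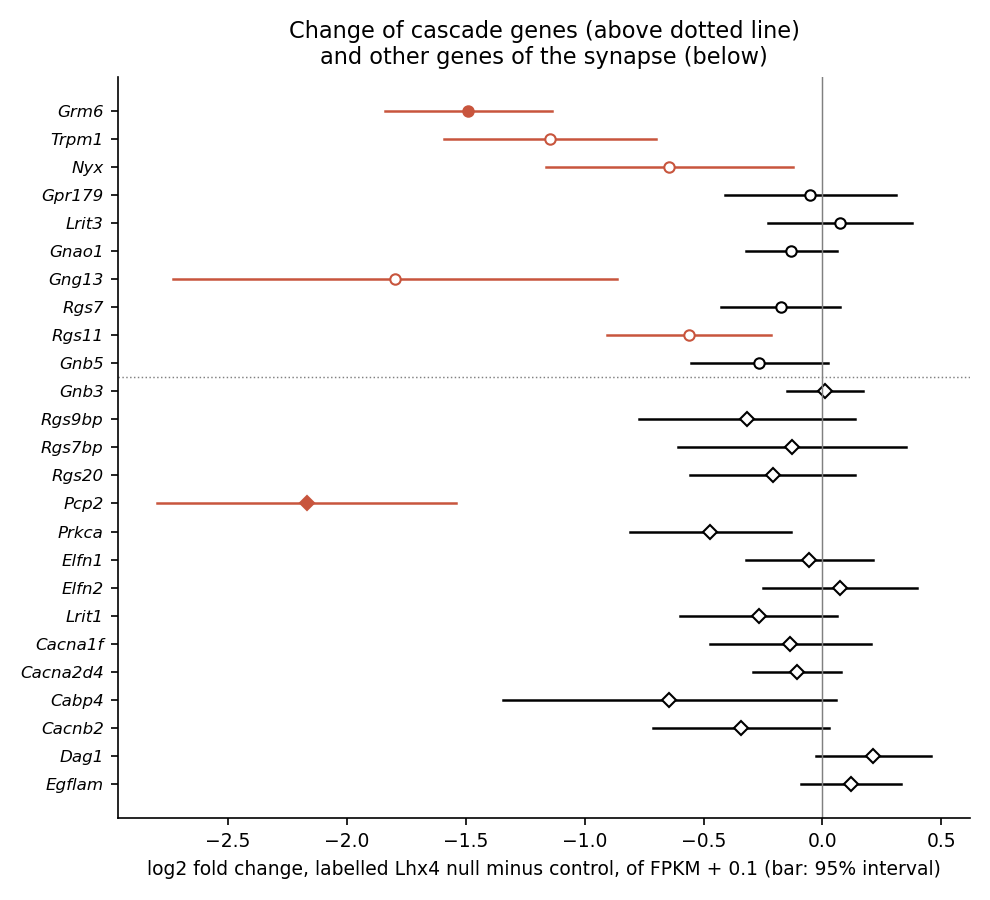
Log2 fold change of FPKM + 0.1, labelled *Lhx4* null minus control, with its 95% interval, for the 10 cascade genes (circles, above the dotted line) and 15 other genes of the synapse (diamonds, below). Filled symbols have an adjusted p under 0.05 from limma (*Grm6* and *Pcp2*), and red marks genes whose groups did not overlap.

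Of the 3 scaffold genes 0 passed the adjusted threshold. *Nyx* (chromosome X, 13466110 to 13489313) encodes nyctalopin, a leucine-rich repeat protein that TRPM1 needs to reach the dendritic tip, and it was the lowest of the 10 genes in every library. It was at 1.15, 1.76 and 1.08 FPKM in control libraries, compared with 0.997, 0.683 and 0.740 in the second group. Its highest value among the libraries labelled *Lhx4* null lay just under the lowest control value, and the log2 fold change was -0.64 (95% interval -1.16 to -0.12, adjusted p = 0.54 from limma). *Gpr179* (chromosome 11, 97332109 to 97352077), whose product tethers RGS proteins to the receptor complex, was at 19.7, 24.05 and 17.4 FPKM in control libraries, compared with 24.1, 17.7 and 17.4 in those labelled *Lhx4* null. *Lrit3* (chromosome 3, 129787881 to 129804030), a further leucine-rich repeat protein required for TRPM1 at the synapse, was at 11.3, 12.8 and 11.8 FPKM and at 15.4, 11.9 and 10.8 FPKM. In both genes *Lhx4* null replicate 1 held the highest value of all 6 libraries and the other libraries of the 2 groups were interleaved. Their log2 fold changes were -0.05 for *Gpr179* (95% interval -0.41 to 0.31) and 0.07 for *Lrit3* (95% interval -0.23 to 0.37), with adjusted p-values of 0.95 and 0.92 from limma. Both intervals lie above a 2-fold fall. The sign of these small differences turned with single libraries: it was 0.07 for *Gpr179* without control replicate 2, 0.02 when *Lhx4* null replicate 2 was left out and 0.03 when *Lhx4* null replicate 3 was, and -0.08 for *Lrit3* without *Lhx4* null replicate 1.

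Of the 2 G protein subunit genes 0 passed the adjusted threshold. *Gnao1* (chromosome 8, 93809966 to 93969388) encodes the alpha subunit of Go, which many other neurons also make, and it was the most abundant of the 10 genes. Its values were 155, 152 and 143 FPKM in control libraries, compared with 148, 140.0 and 124 in those labelled *Lhx4* null. The groups overlapped through *Lhx4* null replicate 1 and control replicate 3, and the log2 fold change was -0.13 (95% interval -0.32 to 0.06, adjusted p = 0.71 from limma). *Gng13* (chromosome 17, 25717171 to 25719406) encodes a gamma subunit found in ON bipolar cells, though not only there. It was at 7.14, 8.94 and 4.76 FPKM in control libraries, compared with 1.57, 1.09 and 3.73 in the second group. *Lhx4* null replicate 3 was far closer to control replicate 3 than to its own group, although the groups did not overlap. The log2 fold change was -1.80, farthest from 0 of the 10 genes but with the widest 95% interval, -2.73 to -0.86 (limma, adjusted p = 0.23). Over 15 alternatives it ran from -2.28 to -1.40. *Gng13* has 773 exon bases, the fewest of the 10 genes, and 51.6% of them overlap *Chtf18*, a protein-coding gene on the opposite strand.

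RGS7 and RGS11 are the GTPase-activating proteins that switch Go off, and each is stable only as a dimer with GNB5, an atypical G protein beta subunit. *Rgs11* (chromosome 17, 26202951 to 26211324) was at 26.4, 33.6 and 22.4 FPKM in control libraries, compared with 20.6, 18.5 and 16.2 in those labelled *Lhx4* null. The groups did not overlap, the null mean was 67.0% of the control mean, and the log2 fold change was -0.56 (95% interval -0.90 to -0.22, adjusted p = 0.38 from limma). *Rgs7* (chromosome 1, 175059087 to 175492500) was at 11.5, 12.8 and 9.66 FPKM and at 10.02, 9.85 and 10.0045 FPKM. *Gnb5* (chromosome 9, 75306288 to 75345876) was at 87.1, 99.8 and 85.3 FPKM and at 91.6, 66.8 and 69.6 FPKM. In *Rgs7* control replicate 3 lay below all 3 libraries labelled *Lhx4* null, and in *Gnb5* only *Lhx4* null replicate 1 reached the control values. Their log2 fold changes were -0.17 (95% interval -0.42 to 0.07) and -0.27 (95% interval -0.55 to 0.02), with adjusted p-values of 0.70 and 0.64 from limma.

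FPKM is scaled to length, so levels can be set side by side. In control libraries the mean order was *Gnao1* (150 ± 6.31 FPKM, mean ± SD, n = 3), *Gnb5* (90.7 ± 7.93), *Grm6* (60.5 ± 12.2), *Trpm1* (35.7 ± 10.9), *Rgs11* (27.5 ± 5.68), *Gpr179* (20.4 ± 3.38), *Lrit3* (11.96 ± 0.734), *Rgs7* (11.3 ± 1.58), *Gng13* (6.95 ± 2.10) and *Nyx* (1.33 ± 0.370). *Trpm1* and *Rgs11*, *Rgs11* and *Gpr179*, and *Lrit3* and *Rgs7* are neighbours whose library values overlapped. In libraries labelled *Lhx4* null, *Gnao1* (137 ± 11.9 FPKM, n = 3) and *Gnb5* (76.0 ± 13.6) stayed first. They were followed by *Grm6* (21.3 ± 3.01), *Gpr179* (19.7 ± 3.83), *Rgs11* (18.4 ± 2.16), *Trpm1* (15.7 ± 1.87), and then by *Lrit3* (12.7 ± 2.42), and each neighbouring pair of these 5 overlapped. After them came *Rgs7* (9.96 ± 0.0944), *Gng13* (2.13 ± 1.41) and *Nyx* (0.806 ± 0.168). *Grm6* was in place 3 in each control library and in place 4, 4 and 3 in the others, while *Gpr179* moved from place 6 in each control library to places 3, 5 and 4.

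Ratios between genes in the same library do not depend on the scaling of that library. *Grm6* FPKM divided by *Gpr179* FPKM was 2.84, 3.09 and 2.94 in the control libraries and 0.972, 1.01 and 1.30 in the libraries labelled *Lhx4* null. The groups were separate, and in the second group the ratio was highest in replicate 3. *Trpm1* divided by *Gpr179* was 1.63, 1.99 and 1.55 in control libraries and 0.678, 0.768 and 0.983 in the others, so that *Trpm1* exceeded *Gpr179* in every control library and in 0 of the other 3. *Grm6* divided by *Lrit3* was 5.04 ± 0.739 and 1.71 ± 0.338 (mean ± SD, n = 3). Channel to receptor moved the other way: *Trpm1* divided by *Grm6* was 0.575, 0.644 and 0.528 in control libraries and 0.697, 0.757 and 0.755 in the others. *Grm6* was therefore lowered by more than *Trpm1* in every library labelled *Lhx4* null, relative to any control library. *Rgs11* divided by *Rgs7* was 2.41 ± 0.185 and 1.85 ± 0.215 (n = 3), without overlap. *Gng13* divided by *Gnao1* was 0.0460, 0.0588 and 0.0333 in control libraries and 0.0107, 0.00775 and 0.0300 in the others. The groups were separate, but *Lhx4* null replicate 3 lay close to control replicate 3, and the mean log2 difference of -1.67 ran from -2.22 to -1.27 over 11 alternatives. *Rgs11* divided by *Gnb5* overlapped at 0.301 ± 0.0370 and 0.245 ± 0.0276. These pairs and *Gng13* with *Gnb3*, 8 in all, were chosen after the values were seen. The exact permutation test, two-sided, gave p = 0.1 for the 7 pairs without overlap, the smallest that 3 libraries against 3 allow, and 0.11 after adjustment over the 8.

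Set against *Isl1*, a factor of ON bipolar cells and some other inner neurons, 2 of the 10 genes were lower without overlap. *Isl1* was at 120, 131 and 106 FPKM in control libraries, compared with 76.2, 67.4 and 74.7 in those labelled *Lhx4* null. This reference was itself lower in the second group, without overlap. The log2 ratio of *Grm6* to *Isl1* was -1.09, -0.81 and -1.05 in control libraries and -1.69, -1.91 and -1.72 in the others. For *Trpm1* to *Isl1* it was -1.89, -1.45 and -1.97 against -2.21, -2.30 and -2.12. *Grm6* and *Trpm1* were thus lower relative to *Isl1* in the second group, by a mean log2 difference of -0.79 and -0.44, and such a separation was found for 0.224% of the 15199 other genes tested. *Gpr179*, *Lrit3*, *Gnao1*, *Rgs7* and *Gnb5* were higher relative to *Isl1* without overlap, 5 of 10, against 86.8% of those other genes. Their mean log2 differences, from 0.44 for *Gnb5* to 0.78 for *Lrit3*, compare with a median of 0.71 over those genes, which reflects the fall of *Isl1* itself, and *Lrit3* alone of the 5 lay above it. *Nyx*, *Rgs11* and *Gng13* overlapped. The smallest two-sided p of the exact permutation test was 0.1, the least it can give.

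**Figure D3:**
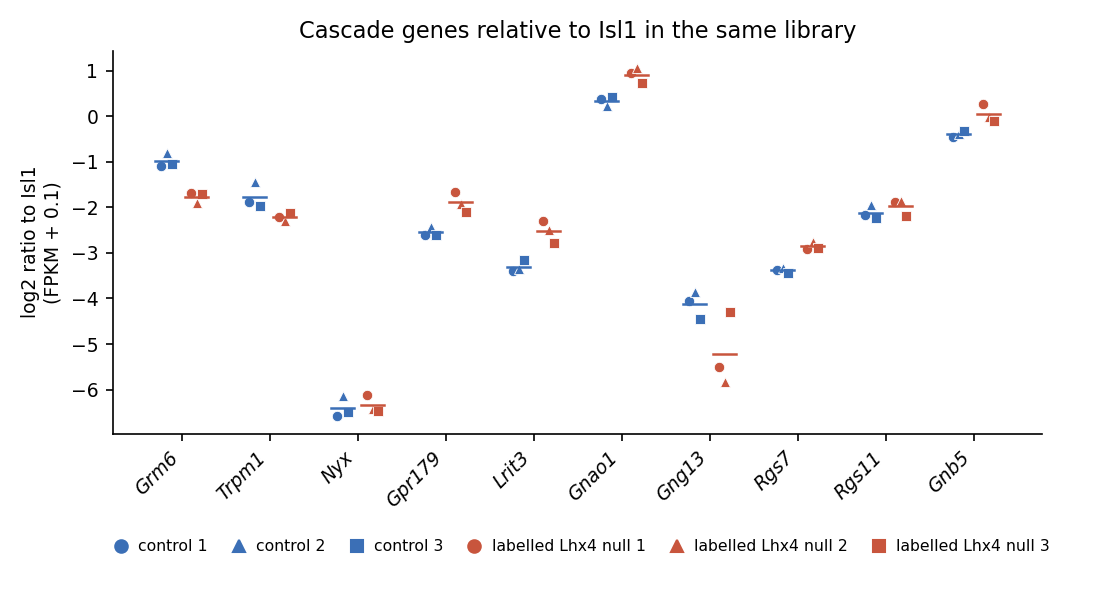
Log2 ratio of each cascade gene to *Isl1* in each library, on FPKM + 0.1, with control libraries in blue, libraries labelled *Lhx4* null in red and a line at each group mean. *Grm6* and *Trpm1* lie lower in the second group, and *Gpr179*, *Lrit3*, *Gnao1*, *Rgs7* and *Gnb5* lie higher, as do 86.8% of other genes tested, because *Isl1* fell.

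Of 15 other genes of this synapse, 1 passed the adjusted threshold, in the lower direction, and 0 in the higher, and the median of the 15 log2 fold changes was -0.13. The 6 on the bipolar side were *Pcp2*, *Prkca*, *Gnb3*, *Rgs9bp*, *Rgs7bp* and *Rgs20*. *Pcp2*, which binds the alpha subunit of Go, was at 47.0, 85.9 and 36.6 FPKM in control libraries, compared with 13.4, 10.1 and 11.8 in the second group. Control replicate 2 was far above the other control libraries, and all 3 control libraries were above all 3 others. It fell by 2.17 on the log2 scale (adjusted p = 0.028 from limma), but its adjusted p was 0.062 without control replicate 1 and 0.051, 0.16 and 0.11 without *Lhx4* null replicates 1, 2 and 3, in a range of 0.0099 to 0.36 over 15 alternatives. *Prkca*, the kinase that marks rod bipolar cells, was at 24.2, 27.9 and 20.3 FPKM and at 20.9, 16.1 and 15.3 FPKM, overlapping through *Lhx4* null replicate 1 (log2 fold change -0.47, adjusted p = 0.48 from limma). *Gnb3*, the beta subunit that pairs with GNG13 in ON bipolar cells and is also made by cones, was at 346, 350.3 and 338 FPKM and at 345, 344 and 351 FPKM. These 6 values span a narrow range, with a log2 fold change of 0.01 (95% interval -0.15 to 0.17) whose sign turned under both scalings and without control replicate 3. *Gng13* divided by *Gnb3* was 0.0207, 0.0255 and 0.0141 in control libraries and 0.00455, 0.00315 and 0.0106 in the others (mean log2 difference -1.81, from -2.28 to -1.41 over 11 alternatives), with *Lhx4* null replicate 3 again nearest the control libraries. *Rgs9bp*, an anchor of RGS dimers shared with photoreceptors, *Rgs7bp*, its relative, and *Rgs20*, a further RGS gene, overlapped, with log2 fold changes of -0.32, -0.13 and -0.21. Over 15 alternatives these ran from -0.55 to -0.18, from -0.35 to -0.008 and from -0.32 to -0.11.

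Genes of the photoreceptor side, which face the complex across the cleft, numbered 9, of which 0 passed the adjusted threshold in limma, 0 had an unadjusted p under 0.05 and all 9 overlapped. *Elfn1*, the adhesion protein of rods that binds mGluR6, was at 32.9, 36.0 and 33.1 FPKM in control libraries, compared with 39.4, 31.2 and 28.5 in the second group (log2 fold change -0.05, turning to 0.04 without *Lhx4* null replicate 3). Its cone counterpart *Elfn2* and the synaptic protein gene *Lrit1* had log2 fold changes of 0.07 and -0.27. Those of the calcium channel genes *Cacna1f*, *Cacna2d4* and *Cacnb2* and of the channel's partner *Cabp4* were -0.13, -0.11, -0.34 and -0.64. *Dag1* (dystroglycan) and its ligand *Egflam* (pikachurin) were at 0.21 and 0.12. *Cabp4*, farthest from 0, ran from 7.63 to 22.5 FPKM, with *Lhx4* null replicate 1 at 19.3 FPKM among the control libraries.

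Close relatives of the 10 genes gave no adjusted p under 0.05 in limma: of 33, 3 (*Trpm5*, *Trpm6* and *Trpm8*) were below the filter, and of the 30 tested 1 was lower, against 3.55% of all genes tested, and 4 were higher, against 4.60%, at an unadjusted p under 0.05. Their median log2 fold change was 0.02. The groups were separate in 5 of 30, all higher in the libraries labelled *Lhx4* null, against 8.10% of all genes tested: *Gnai2*, *Gnat2*, *Gnb2*, *Gng10* and *Trpm7*, named after their values were seen. The other receptors of the same class, *Grm4*, *Grm7* and *Grm8*, had log2 fold changes of -0.01, -0.15 and -0.03, and *Grm7*, the most abundant of them, was between 10.2 and 13.4 FPKM. Among the listed alpha subunit relatives of *Gnao1*, *Gnai2* was most abundant (70.3 FPKM in control libraries, compared with 82.1 in the second group, as means). The beta, gamma and R7 RGS genes of highest mean over all 6 libraries, *Gnb1*, *Gngt2* and *Rgs9*, overlapped between the groups. *Trpm7*, the most abundant other TRPM channel, was at 21.9 and 24.3 FPKM, both means.

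The genes most like *Grm6* over the 6 libraries, by Pearson's r of log2(FPKM + 0.1) among the 12484 other genes whose mean reached 1 FPKM, were *Isl1* (r = 0.996), *Smug1* (0.992), *Pcp2* (0.991), *Samsn1* (0.9902) and *Ak4* (0.9897). These values describe 6 libraries in which genotype and depth differ together. *Trpm1* came in place 16, *Gng13* in place 159, *Nyx* in place 175 and *Rgs11* in place 200. *Gnb5*, *Rgs7* and *Gnao1* were at 690, 818 and 1404, *Gpr179* at 3350 (r = 0.32), and *Lrit3* at 6473 (r = -0.10), near the middle of the order. *Smug1*, a DNA repair glycosylase gene, was at -0.39 on the log2 scale (limma, adjusted p = 0.14), *Samsn1* fell by 0.98 (adjusted p = 0.0080, and 0.056 without *Lhx4* null replicate 2), and *Ak4*, an adenylate kinase gene, was at -0.88 (adjusted p = 0.088). Over 15 alternatives the adjusted p of *Samsn1* ran from 0.0058 to 0.15.

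Control replicate 2 was the highest control library for 9 of the 10 genes, against 39.0% of all genes tested, and *Lhx4* null replicate 1 the highest of its group for 8 of 10, against 32.3%. The same libraries were highest in their groups for 6 and 7 of 8 rod genes. *Gnat1*, the rod transducin alpha subunit, was at 29.2, 84.3 and 35.8 FPKM in control libraries, compared with 56.1, 21.2 and 20.05 in the second group. The 8 rod genes summed to 3172, 3638 and 3118 FPKM and to 3395, 2567 and 2714 FPKM, with 0 of 8 passing the adjusted threshold. Control replicate 2 and *Lhx4* null replicate 1 were also the shallowest libraries of their groups. Without both, the log2 fold change of *Grm6* was -1.41, with an adjusted p of 0.060 from limma (0.0075 to 0.25 over 15 alternatives), in a fit of 4 libraries in which 9 genes of all those tested passed, against 34 with all 6. The part of rod genes or depth in the cascade values was not tested.

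**Figure D4:**
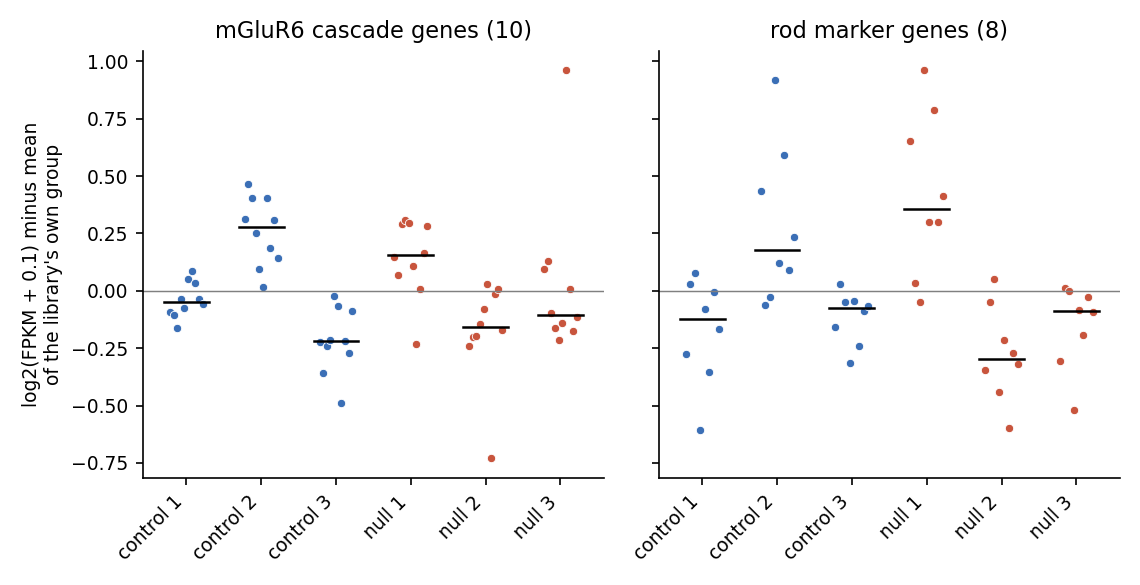
Deviation of log2(FPKM + 0.1) in each library from the mean of its own group, for the 10 cascade genes (left) and 8 rod genes (right), with a line at the median. Control replicate 2 and *Lhx4* null replicate 1 lie above their group means for most genes of both lists.

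Markers of other cell types were read beside the cascade, and every marker was above 0 in every library. All 8 ON or rod bipolar markers were lower (median log2 fold change -0.87), 3 of them past the adjusted threshold, *Isl1*, *Bhlhe23* and *Pcp2*, and their sums were 239, 304 and 210 FPKM against 138, 125 and 130 FPKM, with *Isl1* most abundant. *Isl1* fell by 0.70 (adjusted p = 0.031 from limma), but its adjusted p was 0.14 and 0.088 without control replicates 1 and 2, and 0.052, 0.15 and 0.11 without *Lhx4* null replicates 1, 2 and 3, in a range of 0.027 to 0.27 over 15 alternatives. *Bhlhe23* fell by 3.78 (adjusted p = 1.713e-04 from limma). The OFF cone bipolar markers, which do not use this cascade, had a median of -1.37 and sums of 68.7, 73.8 and 68.4 against 37.4, 41.1 and 42.3 FPKM. Of the 9, 6 were lower without overlap, *Hcn4* was higher without overlap (0.14), and *Prkar2b* (-0.06) and *Kcnip3* (-0.03) overlapped. *Prkar2b* had the highest mean over all 6 libraries, but *Lhx3* and *Grik1* were above it in every control library. *Grik1*, *Fezf2*, *Lhx3* and *Nxph1* passed the threshold, *Nxph1* with an adjusted p of 0.082, 0.083 and 0.11 without control replicates 1, 2 and 3 and of 0.079, 0.17 and 0.11 without *Lhx4* null replicates 1, 2 and 3 (0.034 to 0.32 over 15 alternatives). Of genes shared by bipolar cell types, *Otx2*, *Neurod4* and *Cabp5* overlapped, with log2 fold changes of 0.07, -0.31 and -0.22. The fall of *Grm6* thus stood beside 6 of 8 ON or rod and 6 of 9 OFF bipolar markers that were lower without overlap. Such a separation was found for 6.13% of all genes tested, and the dependence of *Grm6* on these markers was not tested.

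*Trpm1* is not made by ON bipolar cells alone, and the share of each cell type in its value was not tested. The paper also lists it for several OFF cone bipolar types, whose markers had a median log2 fold change of -1.37. Pigment cells, which also make it, have 9 markers here that summed to 19.9, 17.9 and 10.8 FPKM in control libraries, compared with 21.3, 28.9 and 36.9 in those labelled *Lhx4* null, with *Pmel* most abundant, 8 of 9 higher, 0 past the adjusted threshold and 5 higher at an unadjusted p under 0.05 in limma. Amacrine markers (led by *Pax6*) were higher in 8 of 8 (median 0.16 on the log2 scale). Of them 0 passed, 4 of 8 were higher at an unadjusted p under 0.05 and 4 of 8 were higher without overlap. Over all genes tested, 4.60% were higher at that unadjusted p, 8.10% were higher without overlap and 6.13% were lower without overlap. Of 8 cone markers (median 0.04), 2 were lower without overlap, *Opn1mw* (-1.77, adjusted p = 0.097 from limma) and *Arr3* (-1.27, adjusted p = 0.077 from limma), and 3 were higher without overlap. Of these 3, *Opn1sw* passed at 0.88 (adjusted p = 0.031 from limma), with an adjusted p of 0.062, 0.12 and 0.14 without control replicates 1, 2 and 3 and of 0.085 and 0.11 without *Lhx4* null replicates 2 and 3 (0.027 to 0.33 over 15 alternatives). The median was 0.12 for horizontal (*Calb1*, -0.31), 0.05 for ganglion (*Sncg*, -0.04), 0.15 for Müller glia (*Vim*, 0.25), 0.27 for microglia (*C1qa*, 0.28) and -0.20 for endothelium (*Kdr*, 0.32), each beside the gene of highest mean over all 6 libraries and its own log2 fold change, and 0 genes of these lists passed in limma. At an unadjusted p under 0.05 they gave 0 of 4, 1 of 6, 2 of 7, 1 of 6 and 1 of 5 higher genes, against 4.60% of all genes tested. Endothelium gave 1 of 5 lower, against 3.55%.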

How the data were processed

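The deposited table gives FPKM for each gene and library. By their processing notes, the authors used TopHat2 for mapping to GRCm38 and Cufflinks for expression. Versions and the use of strand are not given in the sources used here. Genes with a mean of 0.1 FPKM or more, 15200 in all, were compared on log2(FPKM + 0.1) in limma 3.58.1 (R 4.3.3), using lmFit, then eBayes with a trend and no block. Two-sided p-values got a Benjamini-Hochberg adjustment over all 15200. The log2 scale with a pseudocount understates changes of low genes. Positions and exon overlaps came from GENCODE vM21 on GRCm38 and promoters from RefSeq, read with Python 3.11.15, with plots from matplotlib 3.10.9. Relative depth came from genes under 0.1 FPKM, with 45 to 147 genes per pair of libraries, and ratios over 3 libraries closed to within 0.102%. The fit and the depth estimate were first run on simulated data with known answers.

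The members, lists and tests were chosen with earlier results of these data known. Named were every cascade gene, every gene of the pathway list, *Lhx4*, the 5 genes most like *Grm6*, and, of relatives and markers, those with an adjusted p under 0.05 and the gene of each set with the highest mean over all 6 libraries. Other relatives and markers were named after their values were seen. Alternatives changed the pseudocount (1 and 0.01 FPKM), filter (absent, or raised to 1 FPKM), scaling (median of ratios, quantile), trend, replicate block and each library. Alternatives of genes outside the cascade and of ratios between pairs of genes, the fit without control replicate 2 and *Lhx4* null replicate 1, and the shares of all genes relative to *Isl1* were added after the data were seen. Of the references planned for ratios, 1 is not reported here.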

Additional observations from a re-analysis of the deposited data

How the results depend on the processing

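Over 15 alternatives each, the 10 cascade genes gave 150 log2 fold changes, of which 139 kept their direction and their side of an adjusted p of 0.05 in limma. The adjusted p of *Grm6* rose above 0.05 in 6, so that the count of cascade genes under it went from 1 to 0 with no filter (adjusted p = 0.25), without the mean-variance trend (0.065), with the replicate block (0.061), without *Lhx4* null replicate 2 (0.056) or 3 (0.051), and with control replicate 2 and *Lhx4* null replicate 1 both left out (0.060, chosen after seeing the data), in a range of 0.0075 to 0.25, while its log2 fold change stayed between -1.60 and -1.33. With no filter, 3554 genes at 0 in all libraries entered the fit and 0 of 21744 genes passed, 1507 having an unadjusted p under 0.05. Leaving out 1 library gave from 0 to 1 cascade genes under an adjusted p of 0.05 and from 4 to 6 under an unadjusted p of 0.05, while the count over all genes tested at that unadjusted p ran from 690 to 1980. Counts of separate groups can only stay or grow when a library is left out, so they are no check and are not given. The sign of *Gpr179*, -0.05 in the fit reported, turned without control replicate 2 (0.0746) and *Lhx4* null replicates 2 (0.0208) and 3 (0.0315), with -0.204 at the other end. That of *Lrit3*, 0.07, turned without *Lhx4* null replicate 1 (-0.0751) and with both libraries left out (-0.0272), with 0.1803 at the other end. That of *Gnb3*, 0.01, turned with median of ratios (-0.0041), with quantile normalization (-0.0039) and without control replicate 3 (-0.0043). *Elfn1*, -0.05, turned without *Lhx4* null replicate 3 (0.0440), *Elfn2*, 0.07, without control replicates 1 (-8.308e-05) and 3 (-8.494e-04), and *Cacna1f*, -0.13, without control replicate 2 (0.0220). Without control replicate 2 *Gnb3* (0.0223) and *Elfn2* (0.221) kept their sign, as did *Elfn1* (-0.188) and *Cacna1f* (-0.245) without *Lhx4* null replicate 1. The cause was not tested. The replicate block made 0 of 10 pass and 15 genes in all, against 34. Same-numbered libraries deviated from their group means with r of -0.13, -1.981e-04 and 0.16, and of the control libraries only replicate 3 went best with its own number, so the libraries were not treated as pairs. *Nyx* and *Gng13* were the lowest of the 10 genes, and their counts of fragments were not recovered.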
